A study of Mus musculus with 10 samples.

Results

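The 10 genes described here belong to the Hedgehog pathway: the co-receptors Cdon, Boc and Gas1, the membrane proteins Ptch1, Smo and Hhip of the receiving cell, Disp1, which acts in the cell that sends the ligand, and the transcription factors Gli1, Gli2 and Gli3. They were taken as all probe sets (groups of short probes for a transcript) whose platform annotation names 1 of these genes and no other, which gave 26 of the 45101 probe sets on the array, for 10 of the 18193 genes measured. The genes were proposed with their genotype differences already known, above all the low signal of Cdon in the mutants. The differences and adjusted p-values of these genes below therefore describe the data and are no independent test of the choice. Gene expression was measured in isolated glomeruli, the capillary tufts where blood is filtered, with 1 array for each of 5 mice of genotype Wt1 +/R394W and 5 of genotype Wt1 +/+. All 10 were unweaned males aged 27 days from 4 generations of backcrossing to FVB/N. They were described as littermates, without a statement of which mice shared a litter. The mutants were heterozygous for a knock-in of the R394W missense change in Wt1. That change models Denys-Drash syndrome, a kidney disease with glomerular failure, and mutants were chosen with little albuminuria and no mesangial lesions by light microscopy. Magnetic beads perfused through the heart were used to isolate them whole, so all glomerular cell types contribute to each value.

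In Hedgehog signalling a secreted ligand (Sonic, Indian or Desert hedgehog) binds Ptch1, which otherwise holds Smo inactive at the primary cilium. Cdon, Boc and Gas1 are cell-surface proteins that bind the ligand together with Ptch1, and active Smo lets Gli proteins switch on target genes, among them Ptch1, Hhip and Gli1 themselves. In the developing kidney and ureter, ligand from the epithelium acts on the surrounding stroma.

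The values are log2 expression values, so a difference of 1 is a 2-fold difference, and each difference is the Wt1 +/R394W mean minus the Wt1 +/+ mean with its standard error (SE). Probe sets of different genes bind with different strength, so signals are compared between mice and not between genes. A probe set was called when its adjusted p in a limma fit over 45037 probe sets was under 0.05. Genes not known to be active in kidney (for example hormone, lens, germ cell, muscle and brain genes, 85 probe sets) gave a yardstick for weak signal, and a mean at or below their 95th percentile, 7.32, is called dim here. The mean over 10 podocyte markers, taken for each mouse, ran from 12.41 to 12.76 in mutants and from 12.66 to 12.78 in wild types. Single markers can lie outside these ranges, and none of them was dim. The Wt1 probe set averaged 11.63 ± 0.16 (SD, n = 5) in mutants and 11.30 ± 0.17 (SD, n = 5) in wild types. Its difference of 0.33 ± 0.10 (SE, 95% interval 0.11 to 0.55) was not called by limma (adjusted p = 0.244). A missense allele need not change the amount of transcript, and a cause of the difference was not tested. The number of arrays limits the precision.

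Mutant glomeruli had lower signals of Cdon, Smo and Disp1, and no member was called higher. Of the 26 probe sets, 4 were called, all lower in mutants, where 0.462% of all probe sets were called lower, 0.391% higher and 0.853% in either direction. With the brightest probe set for each gene, 3 of 10 genes were called, all lower, where 0.698% of 18193 genes were called lower, 0.566% higher and 1.26% in either direction. The genotypes did not overlap in 5 probe sets, all lower in mutants, against 2.78% of all probe sets in either direction and 1.48% with mutants lower. By gene they did not overlap in 4 of 10, against 3.67% of all genes. Signals of 17 of the 26 probe sets were dim and none of these was called, so the 4 calls fell among the 9 that were not, where 1.53% of all probe sets above the limit were called and 0.857% were called lower. Since the genes were chosen on this contrast, nothing is read from these shares. The median difference over the 10 genes was -0.03 on the log2 scale, and over all genes it was 0.00.

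**Figure D1:**
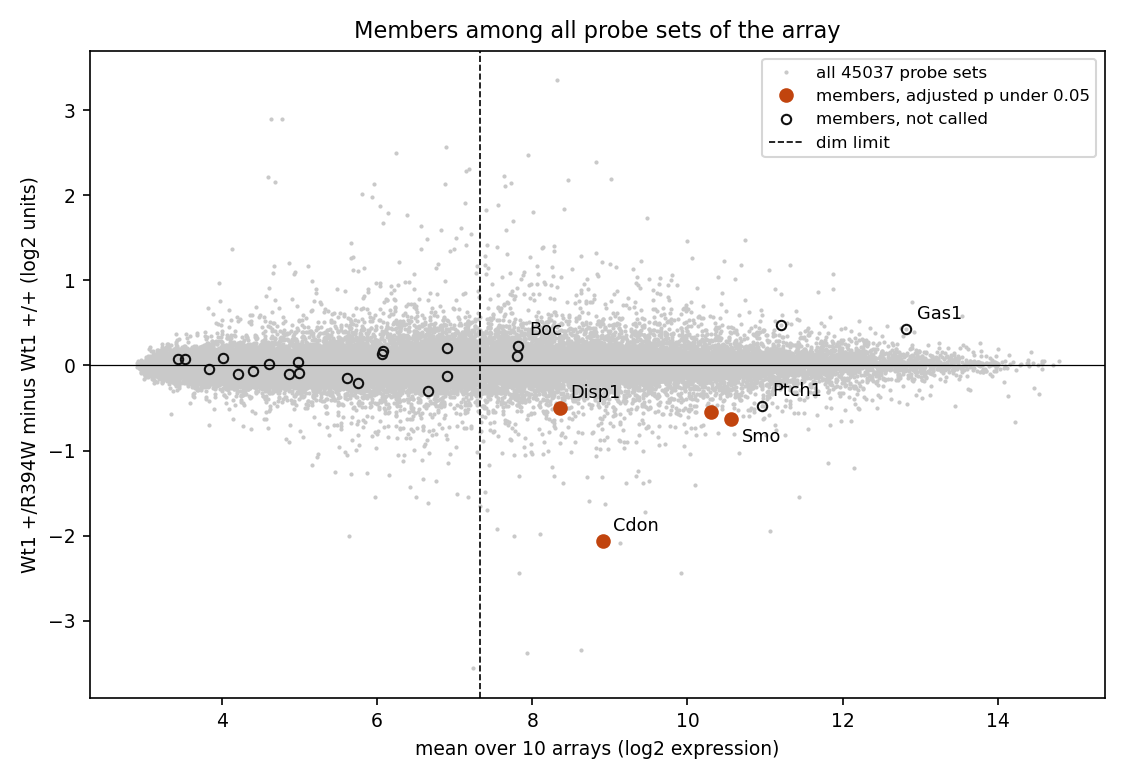
The difference between Wt1 +/R394W and Wt1 +/+ glomeruli (vertical axis, log2 units) is plotted against the mean signal over 10 arrays (horizontal axis, log2 expression) for all 45037 probe sets in grey and the 26 member probe sets as circles, filled where called. Cdon lies at -2.07 and Smo and Disp1 between -0.63 and -0.51, all right of the dashed dim limit at 7.32, while the dim members lie near 0.

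Windows of 300 bases around the annotated starts (250 bases before and 50 after, RefSeq, GRCm38.p6) are shown for Cdon, Smo and Disp1, because these genes held the called probe sets. Letters run 5′ to 3′ on the strand of the gene, and capitals mark the motif GNGTGGGNG of WT1 zinc finger binding, on either strand.

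Cdon: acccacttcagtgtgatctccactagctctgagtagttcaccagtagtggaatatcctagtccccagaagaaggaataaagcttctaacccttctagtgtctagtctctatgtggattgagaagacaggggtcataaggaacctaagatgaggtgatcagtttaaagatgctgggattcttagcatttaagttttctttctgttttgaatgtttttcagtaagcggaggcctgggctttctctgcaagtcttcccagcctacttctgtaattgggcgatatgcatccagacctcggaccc

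Smo: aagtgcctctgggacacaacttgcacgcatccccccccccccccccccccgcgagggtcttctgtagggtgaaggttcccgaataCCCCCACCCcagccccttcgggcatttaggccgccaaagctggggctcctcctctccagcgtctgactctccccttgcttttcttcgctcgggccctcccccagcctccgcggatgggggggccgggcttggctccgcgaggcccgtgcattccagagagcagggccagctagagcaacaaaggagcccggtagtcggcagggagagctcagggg

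Disp1: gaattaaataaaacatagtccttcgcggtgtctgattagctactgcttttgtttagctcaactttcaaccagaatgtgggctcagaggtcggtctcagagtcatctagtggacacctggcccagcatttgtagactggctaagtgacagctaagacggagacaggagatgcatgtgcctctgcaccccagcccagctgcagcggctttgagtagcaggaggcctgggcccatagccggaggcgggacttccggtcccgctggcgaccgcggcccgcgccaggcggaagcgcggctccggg

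The Cdon window is chr9:35451826-35452125 (plus strand), the Smo window chr6:29735247-29735546 (plus strand) and the Disp1 window chr1:183221480-183221779 (minus strand). The Cdon start used by the table lies inside the annotated gene, so an earlier start of the gene is not covered. The same holds for the starts of Ptch1, Hhip and Gli2. The table gave 9 windows for 8 members, with a second window for Disp1, also inside its gene, and none listed for Boc and Gli1. GNGTGGGNG was found in 4 of the 9 windows, those of Smo, Gas1, Gli2 and Gli3, against 14.3% of 32851 windows in the table. In Smo its first base lay 165 bases before the start, written here as CCCCCACCC on the reverse strand, and the Cdon and Disp1 windows held no match. The related motif GCGGGGGCG, bound by WT1 and EGR1 in vitro, stood in the Hhip and Gli2 windows, against 2.91% of all windows. Both motifs were searched on both strands, share G-rich letters and so favour GC-rich windows. Windows with a match had 62.3% (Gas1), 67.7% (Smo), 73.7% (Hhip), 67.3% (Gli2) and 71% (Gli3) GC. Those without had 76.3% (Ptch1), 58.7% and 50.7% (Disp1) and 44.7% (Cdon), with a median of 52.7% over all windows. The shares over all windows are therefore not matched to the GC content of the member windows. The GLI motif GACCACCCA was found in none of the 9 windows (0.253% of all windows), nor was GACCNCCCA (0.977%). A match is a stretch of letters and not a measured binding site, and no match covers these windows only.

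Cdon, a transmembrane co-receptor of Hedgehog ligands, had the largest difference of the members. Its brighter probe set (1434957_at, chromosome 9) read 7.68, 7.99, 7.95, 7.72 and 8.02 in mutants 1 to 5. Wild types 1 to 5 read 10.14, 10.29, 9.64, 9.84 and 9.80. Every mutant lay below every wild type, and the gap between the genotypes was wider than the range within either. Means were 7.87 ± 0.16 in mutants and 9.94 ± 0.27 in wild types (SD, n = 5 each), so the signal fell by 2.07 ± 0.13 (SE) on the log2 scale, to 23.9% of the wild-type level. The 95% interval of the difference ran from -2.34 to -1.79, with an adjusted p of 3.50e-05 in the limma fit. The difference stayed between -2.14 and -1.98 when any 1 mouse was left out, with adjusted p at most 0.000279. The dimmer Cdon probe set (1421452_at, mean 4.86) differed by -0.10 ± 0.07 (SE, adjusted p = 0.729), below the dim limit. In whole glomeruli, fewer cells of a type and less RNA per cell cannot be told apart.

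**Figure D2:**
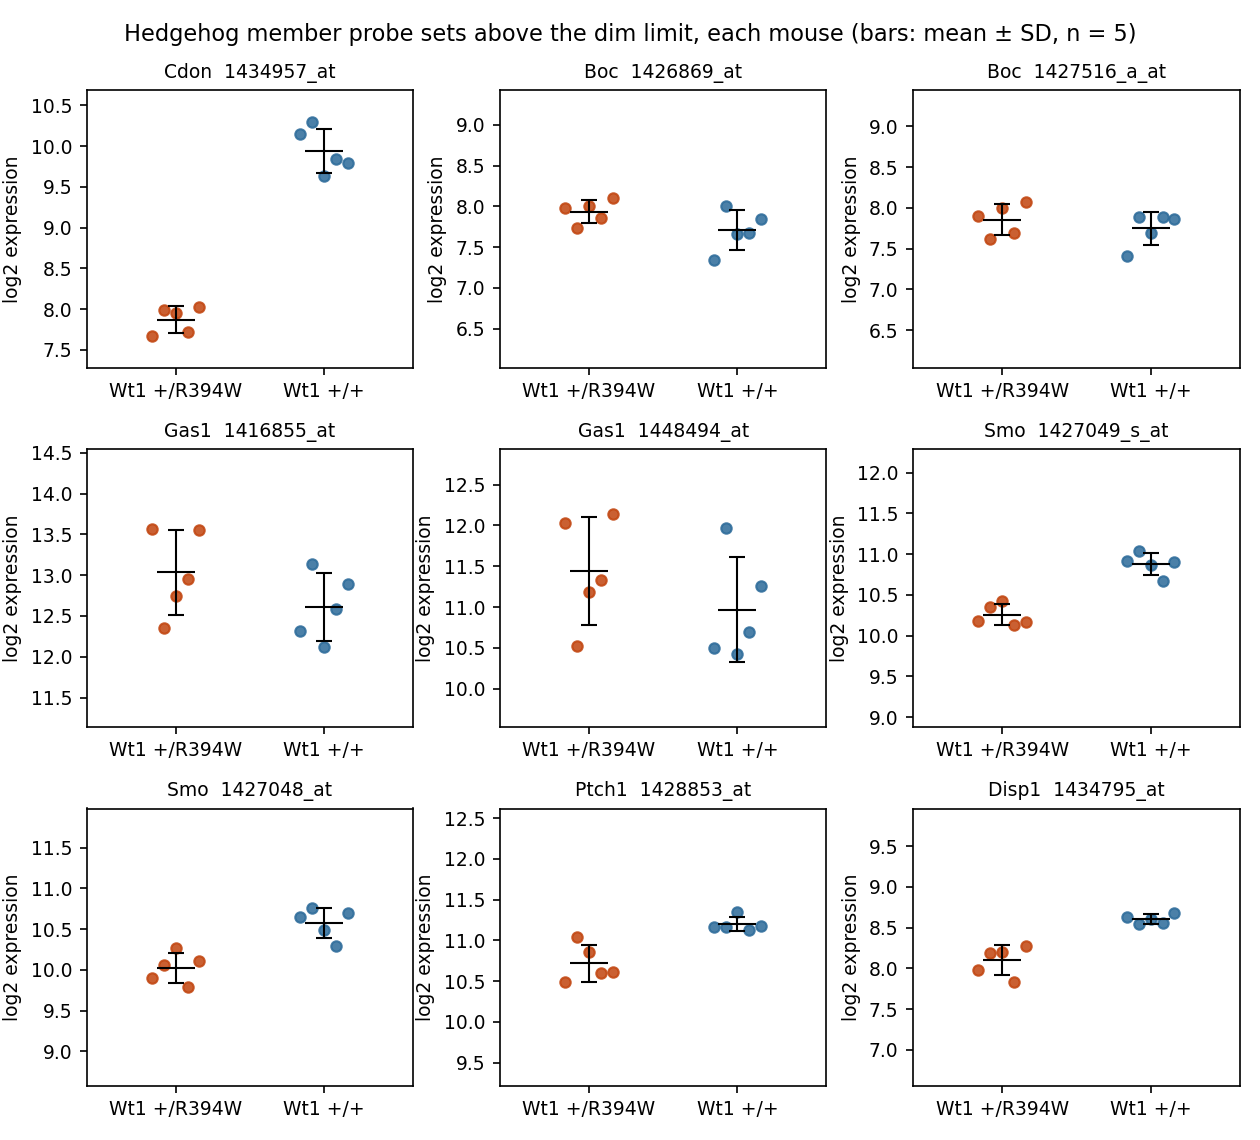
Each panel shows 1 member probe set that was not dim, with the log2 expression of every mouse (points, Wt1 +/R394W left, Wt1 +/+ right) and the mean with SD (bars, n = 5); all panels span 3.4 log2 units. The genotypes are separate for Cdon, both Smo probe sets, Ptch1 and Disp1, and overlap for Boc and Gas1.

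No probe set of the other co-receptors was called. Boc, the closest relative of Cdon among the co-receptors, read 7.98, 7.73, 8.01, 7.86 and 8.10 in mutants 1 to 5 (1426869_at, chromosome 16). Wild types read 7.35, 8.01, 7.66, 7.67 and 7.85, and the genotypes overlapped. The Boc difference was 0.23 ± 0.12 (SE, adjusted p = 0.592), with an interval from -0.03 to 0.49. A further Boc probe set (1427516_a_at) gave 0.11 ± 0.12 (SE, adjusted p = 0.840), and the third (1427517_at, mean 3.52) was dim.

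Gas1, a lipid-anchored co-receptor, varied widely between mice of the same genotype. Its brightest probe set (1416855_at, chromosome 13) read 13.57, 12.36, 12.74, 12.96 and 13.55 in mutants 1 to 5, against 12.31, 13.13, 12.11, 12.59 and 12.89 in wild types 1 to 5. The next one (1448494_at) read 12.04, 10.52, 11.18, 11.33 and 12.14 in mutants, against 10.50, 11.96, 10.43, 10.69 and 11.25 in wild types. Both put mutants 1 and 5 highest and wild type 3 lowest, and the genotypes overlapped in both. The SD within genotypes was 0.47 and 0.66 for these probe sets, larger than in 97.1% and 98.95% of all probe sets. Differences of 0.43 ± 0.26 and 0.48 ± 0.35 (SE) had adjusted p-values of 0.677 and 0.751, and the interval of the first ran from -0.14 to 0.99. The mean of 11 mesangial and smooth muscle markers, of which none was called, ran from 10.45 to 10.89 in mutants and from 10.26 to 10.57 in wild types, and mutants 1 and 5 were highest in that list as they were for Gas1. The part of these cells in the Gas1 signal was not tested.

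Smo, the transmembrane protein that passes the signal into the cell, was lower in mutants by both of its probe sets that were not dim. The brighter one (1427049_s_at, chromosome 6) read 10.19, 10.35, 10.43, 10.13 and 10.17 in mutants 1 to 5, against 10.91, 11.04, 10.87, 10.67 and 10.91 in wild types 1 to 5. The genotypes were separate, and the signal fell by 0.63 ± 0.08 (SE) on the log2 scale to 64.8% of the wild-type level (adjusted p = 0.00455). This call was lost only with the 7 mice of neighbouring animal numbers (wild types 2 to 4 and mutants 1 to 4), an alternative in which the difference was -0.59 (adjusted p = 0.132), or -0.58 with their number runs as a block (adjusted p = 0.162). The other Smo probe set (1427048_at) read 9.90, 10.06, 10.26, 9.80 and 10.11 in mutants and 10.65, 10.76, 10.49, 10.29 and 10.70 in wild types. Mutant 3 and wild type 4 lay closest together there, without overlap, and the difference was -0.55 ± 0.11 (SE), called lower with an adjusted p of 0.0432. Leaving out mutant 3 or wild type 4 kept that call, and leaving out each of the other mice ended it (adjusted p up to 0.117). Centring on array medians ended it too (adjusted p = 0.0542). The third Smo probe set (1442215_at, mean 3.83) was dim and differed by -0.04 ± 0.07 (SE).

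Ptch1, the receptor that is also a target of the pathway, lay just outside the threshold. Its brightest probe set (1428853_at, chromosome 13) read 10.49, 11.05, 10.86, 10.60 and 10.61 in mutants, against 11.17, 11.16, 11.35, 11.13 and 11.18 in wild types. The genotypes did not overlap, with mutant 2 closest to the wild types. The difference was -0.48 ± 0.10 (SE, interval -0.70 to -0.25), and its adjusted p of 0.0643 did not pass. Without mutant 2 it was -0.56 with an adjusted p of 0.0174. It also passed when only probe sets that were not dim entered the fit (adjusted p = 0.0396), when only probe sets with a mean above the median entered (0.0463), and with a variance trend (0.0485). The dim Ptch1 probe sets differed by -0.12 ± 0.08 and -0.21 ± 0.08 (SE), neither called.

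Disp1, which releases lipid-modified ligand from the cells that make it, fell by 0.51 ± 0.09 (SE, adjusted p = 0.0188) on the log2 scale, to 70.4% of the wild-type level. Its brighter probe set (1434795_at, chromosome 1) read 7.98, 8.19, 8.20, 7.84 and 8.28 in mutants and 8.63, 8.54, 8.61, 8.56 and 8.68 in wild types. Wild types lay close together and every mutant was lower. Without wild type 1 (adjusted p = 0.0556) or wild type 5 (0.0507) the call ended, as it did with the mice of neighbouring numbers, where the difference was -0.52 (adjusted p = 0.148, and 0.162 with the block). The dim probe set (1435132_at, mean 6.66) differed by -0.30 ± 0.11 (SE, adjusted p = 0.388). The weaker Smo probe set, Disp1 and Ptch1 thus had adjusted p-values near the threshold, while that of the brighter Smo probe set stayed at most 0.0165 when any 1 mouse was left out. When all probe sets of a gene were averaged, 3 genes were again called, but Ptch1 (adjusted p = 0.0338) took the place of Disp1 (0.0570) beside Cdon and Smo.

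Hhip, a membrane protein that binds and sequesters ligand, and the 3 Gli genes gave only dim signals. The 4 Hhip probe sets had means between 3.44 and 4.61 and differences between -0.06 and 0.08. Gli1, the activator whose own transcript tracks pathway activity in many tissues, read 4.98, 4.78, 5.03, 4.90 and 5.28 in mutants and 4.87, 4.93, 5.10, 4.80 and 5.09 in wild types. Those values overlapped throughout, with a difference of 0.04 ± 0.10 (SE, adjusted p = 0.941, interval -0.18 to 0.25). Gli2, the main activator that responds to Smo, differed by -0.08 ± 0.09 and -0.10 ± 0.08 (SE). Gli3, best known as a repressor, came closest to the limit with a mean of 6.90 (1456067_at) and differed by 0.21 ± 0.11 (SE, adjusted p = 0.599). Its other probe sets gave 0.13 ± 0.12 and -0.15 ± 0.06 (SE, adjusted p = 0.502), so the Gli3 probe sets did not share a sign. At such signals a change of the transcript may not be detectable on these arrays.

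**Figure D3:**
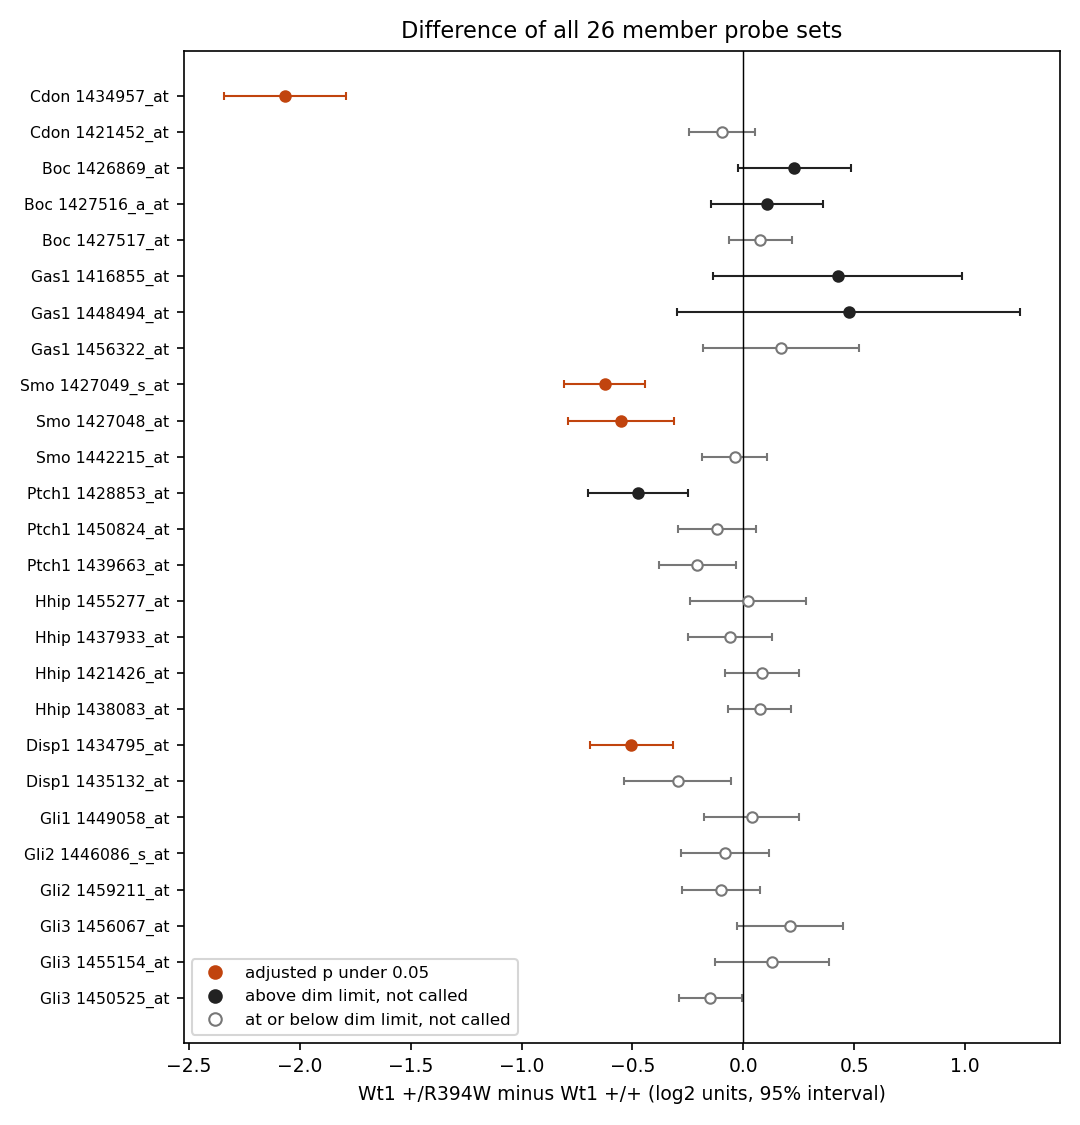
The difference between Wt1 +/R394W and Wt1 +/+ glomeruli (log2 units, points) with its 95% interval (bars, n = 5 mice per genotype) is shown for all 26 member probe sets, with open points for dim ones. The called probe sets, 1 of Cdon, 2 of Smo and 1 of Disp1, lie left of 0, and the intervals of all Boc, Gas1, Hhip, Gli1 and Gli2 probe sets include 0.

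Few other genes of the pathway were called. Over 6 lists of ligand, receptor, Gli regulator, target, cilium and co-receptor partner genes, 2 of 117 measured genes beside the members were called, both higher in mutants, or 1.71% against 1.26% of all genes (0.566% higher). Their median difference was 0.03. Without mutant 3 the calls were 3, of which 2 were lower: Arrb1 (-0.40, adjusted p = 0.0444) and Foxl1 (-0.52, adjusted p = 0.0259), a transcription factor gene of the target list named here after its values were seen. With all mice Foxl1 differed by -0.43 ± 0.10 (SE, adjusted p = 0.103). Both genes called with all mice belonged to the 17 measured genes of the target list. At an unadjusted p under 0.05 by limma, 5 genes of that list differed, 2 higher and 3 lower in mutants. That was 29.4% of the list, against 11% of all genes. Bmp4, a secreted growth factor induced by Hedgehog in several tissues, read 9.88, 9.60, 10.02, 10.30 and 10.23 in mutants, against 8.92, 9.26, 8.86, 8.99 and 8.94 in wild types. It rose by 1.01 ± 0.13 (SE, adjusted p = 0.00342), with every mutant above every wild type, and that call ended only with the mice of neighbouring numbers (adjusted p = 0.103, or 0.128 with the block). The cell cycle kinase gene Cdk6 rose by 0.36 ± 0.07 (SE, adjusted p = 0.0453), with 9.42, 9.45, 9.46, 9.58 and 9.41 in mutants and 8.94, 9.08, 9.04, 9.30 and 9.14 in wild types. Leaving out a single mouse ended the Cdk6 call in 9 of 10 cases, all but wild type 4 (adjusted p up to 0.113), and its other probe sets were not called (0.30 ± 0.08 and -0.03 ± 0.15 SE).

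Ligand transcripts gave little signal. Of 5 probe sets for Sonic, Indian and Desert hedgehog, 4 were dim, and the fifth, for Dhh (1434959_at, mean 7.69), ran from 7.40 to 8.12 in mutants and from 7.54 to 7.88 in wild types. By limma, none of the 12 genes for ligands and their release was called, and 3 were higher at an unadjusted p under 0.05. The X-linked glypican gene Gpc3, whose protein competes with Ptch1 for ligand, came closest. It read 11.88, 11.83, 11.56, 11.42 and 11.42 in mutants, against 10.89, 11.44, 10.55, 10.32 and 10.72 in wild types, a difference of 0.84 ± 0.18 (SE, adjusted p = 0.0717), and wild type 2 overlapped the mutants. Without wild type 2 the difference was 1.002 (adjusted p = 0.00970), and with dim probe sets left out of the fit it was also called (adjusted p = 0.0492). Gpc4 differed by 0.41 ± 0.14 (SE, adjusted p = 0.309).

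Among 10 other genes of the receptor side none was called by limma, and 1 had an unadjusted p under 0.05: Arrb1, a beta-arrestin, at -0.29 ± 0.11 (SE, adjusted p = 0.425). Evc, a ciliary partner of Smo, differed by 0.23 ± 0.11 (SE, adjusted p = 0.561). Of 24 Gli regulators none was called, with differences between -0.14 and 0.19. The ends of that range were Zic1, a Gli-related factor with dim signal, and Itch, a ubiquitin ligase, the only one with an unadjusted p under 0.05 (0.19 ± 0.06 SE, adjusted p = 0.254). In the list of 36 genes of the primary cilium and its transport none was called. A positive difference was seen in 28 of them, where 9399 of all 18193 genes had one, and 5 had an unadjusted p under 0.05 by limma. Examples are Dync2li1, a subunit of the ciliary dynein, at 0.35 ± 0.10 (SE, adjusted p = 0.186), and Cep290, a protein of the ciliary gate, at 0.36 ± 0.10 (SE, adjusted p = 0.177, dim). Cep290 was called with the tubule markers (adjusted p = 0.0381) or the podocyte markers (0.0306) as covariate, and Cdk6 was then not called. Of 18 partners of Cdon and Boc, none was called and 1 had an unadjusted p under 0.05, the adhesion gene Cdh2 (-0.37 ± 0.14 SE, adjusted p = 0.402, dim). Ntn1, the netrin ligand, followed at 0.25 ± 0.11 (SE, adjusted p = 0.540, dim). At an unadjusted p under 0.05, 11% of all genes differed, and 13.7% of the 117.

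**Figure D4:**
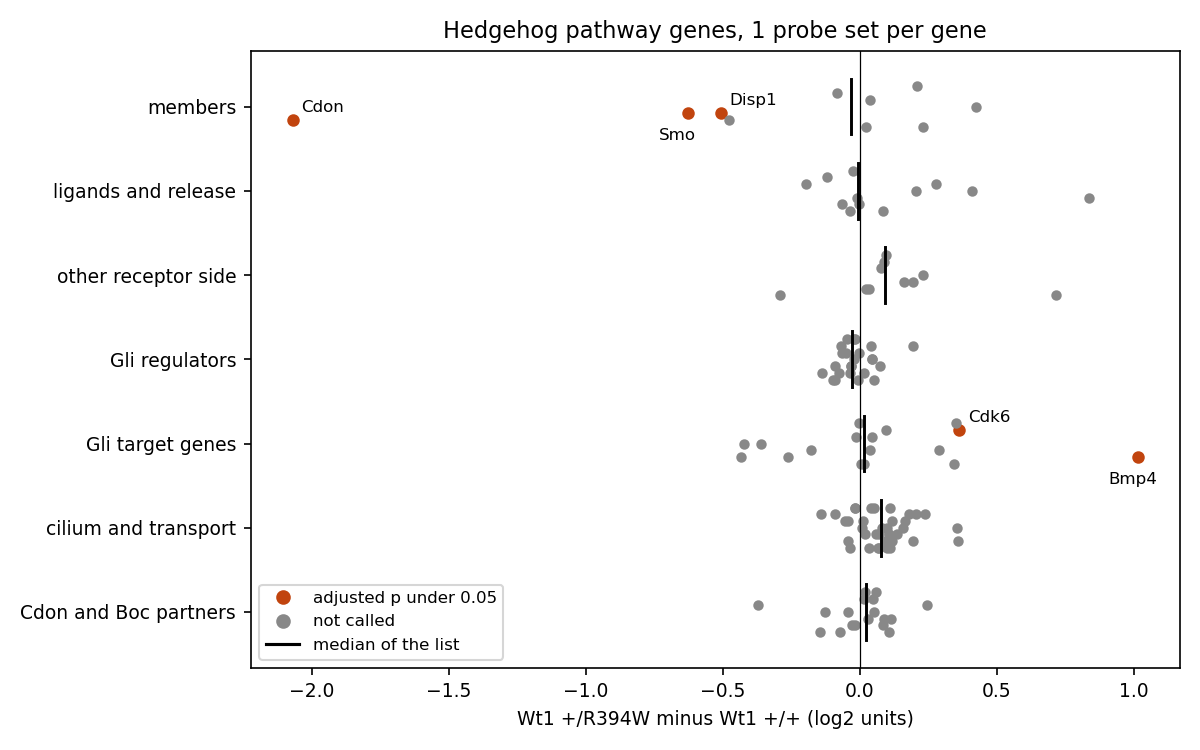
Each point is 1 gene (brightest probe set) with its difference between Wt1 +/R394W and Wt1 +/+ glomeruli (log2 units), grouped by pathway list, with the median as a bar and called genes in colour. Called genes are Cdon, Smo and Disp1 among the members, all lower, and Bmp4 and Cdk6 among the target genes, both higher.

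Cell type markers were read beside these differences. Tubule fragments varied between preparations, and the mean of 17 proximal tubule markers ran from 6.69 to 10.19 in mutants and from 6.46 to 9.13 in wild types, with none called. With a score per array from the proximal and distal tubule lists as covariate the differences were -2.05 for Cdon, -0.62 and -0.52 for Smo and -0.48 for Disp1, all 4 still called. An alternative added once the data had been seen used the mean of the podocyte markers other than Plce1 as covariate, and the differences were -2.04, -0.61, -0.51 and -0.47 in that order, again all called. Of the podocyte markers 1 of 10 was called, Plce1, at -0.74 ± 0.11 (SE, adjusted p = 0.00865). The podocyte covariate thus left out the 1 marker with a called difference and cannot account for a change of that kind. None of 12 endothelial and 9 parietal markers was called. In the stroma list Dcn was higher (1.83 ± 0.16 SE, 1 of 12). With Dcn included, the mean of that list ran from 7.39 to 7.58 in mutants and from 7.19 to 7.40 in wild types. The difference was negative in 7 of these 12 genes, with a median of -0.05. In the leukocyte list Csf1r was lower (-0.99 ± 0.17 SE, 1 of 10). Its other probe sets were not dim and gave -0.66 ± 0.16 and -0.55 ± 0.13 (SE), neither called (adjusted p = 0.115 and 0.107). The part of podocytes, stromal cells and leukocytes in the member values was not tested.

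The genes whose profile over the 10 mice was closest to that of Cdon were Pcsk6, Cyp2s1, Shisa3, Mgat4a and Fxyd6. Likeness was the root mean square difference between a gene and Cdon after each was centred on its own mean, and it was 0.237, 0.264, 0.276, 0.289 and 0.295 log2 units for these genes in that order. All 5 were called lower in mutants, with differences of -2.09 ± 0.15 (SE) for Pcsk6, a proprotein convertase, and -2.44 ± 0.19 (SE) for Cyp2s1, a cytochrome enzyme. Such a measure picks genes with a genotype difference of similar size, which the values of Cdon already set. Within wild types Cdon and Cyp2s1 were both highest in wild types 1 and 2, whereas Pcsk6 was highest in wild types 2 and 5.

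**Figure D5:**
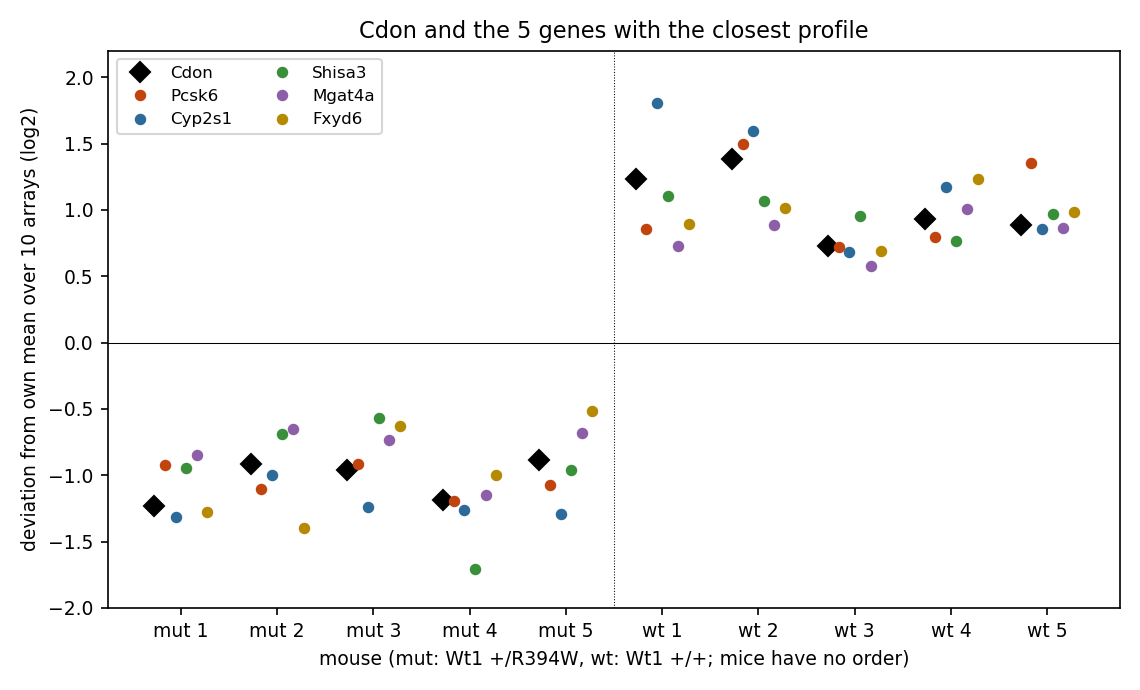
The deviation of Cdon (diamonds) and of the 5 genes with the closest profile (circles) from their own means over 10 arrays (vertical axis, log2 units) is shown for each mouse, mutants left and wild types right. All 6 genes lie below 0 in every mutant and above 0 in every wild type.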

How the data were processed

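Biotin-labelled total RNA was hybridised, 1 array a mouse, per the labels. The log2 expression values were deposited by the authors, made by RMA (background correction, quantile normalization between arrays and summary of probes) per the submitters' processing notes, and RMA compresses changes of weak signals. Its version is not given in the sources used here, and scanner files were not used here. Groups came from the labels. The replicate numbers are names without meaning, and no source ties mutants to wild types by litter, so mice were not paired. All 10 columns matched a sample and 0 belonged to others.

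Of 45101 probe sets, 64 controls were left out. The comparison used limma 3.58.1 in R 4.3.3, with moderated variances and genotype as its one term. Its two-sided p-values were adjusted by Benjamini-Hochberg over 45037 probe sets. For lists, the brightest probe set stood for its gene. Members and lists were chosen with earlier results of these data known. Genes named beside the members are Wt1, the called genes of each list, the 2 genes of each pathway list with the smallest p, and the 5 closest to Cdon. Evc, Zic1 and Ntn1 come in by that rule. Simulated data with known changes were used to test the fitting step. Promoter windows came from RefSeq, and protein sequences were not used here. Alternatives covered scaling, filters, variance models, covariates, neighbouring animal numbers and each mouse left out. Figures were drawn with matplotlib (version 3.10.9).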

Additional observations from a re-analysis of the deposited data

Results flagged for a closer look

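In 94 groups of 5 mice, 1 mouse lay far from the other 4 in 4 cases, and chance alone gives about 1 in 20 groups. For Ptch1 (1428853_at), wild type 3 read 11.35 while the other wild types read 11.13 to 11.18. For Gli2 (1446086_s_at, dim), mutant 3 read 4.81 while the other mutants read 4.97 to 5.02. For Zic1 (1423477_at, dim), wild type 3 read 3.59 while the others read 3.18 to 3.29. For Cyp2s1 (1428283_at), mutant 2 read 6.82 while the other mutants read 6.51 to 6.59.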

How the results depend on the processing

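The difference of Cdon kept its sign and its call in all 23 alternatives, from -2.14 to -1.98, with adjusted p at most 0.00672. The number of called member probe sets was 4 and ran from 2 to 4 when 1 mouse was left out, with 2 called without wild type 1 or wild type 5. It was 2 at an adjusted p under 0.01, and 1 with only the 7 mice of neighbouring animal numbers, with or without their runs as a block. It was 5 with either filter on weak signal or with a variance trend. Over all probe sets 384 were called, 216 to 301 without 1 mouse (216 without wild type 4, 242 without wild type 1), 144 at an adjusted p under 0.01, 110 with the neighbouring mice and 126 with their runs as a block. More were called after repeated quantile normalization (409), with a variance trend (428) and with the tubule (445) or podocyte (508) covariate. Called genes of the pathway lists numbered 2, and 1 to 3 without 1 mouse, where the 3 were 1 higher and 2 lower without mutant 3. They numbered 3 with dim probe sets left out. They numbered 1 after centring on array medians, after repeated quantile normalization and at an adjusted p under 0.01, and 0 with the neighbouring mice, with or without the block. Apart from the stricter threshold, which can only lower a count, the cause of these shifts was not tested. No called value changed sign. Of the alternatives, 12 of 23 ended the call of the weaker Smo probe set (1427048_at), 5 of 23 that of Disp1 and 16 of 23 that of Cdk6, and 4 of 23 brought Ptch1 past the threshold. Mice were not paired one to one, since the labels give no shared replicate numbers and do not say which mice share a litter, and the block on number runs covers 7 mice. Dim signals limit what the Gli and Hhip probe sets can show.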
